A study of Mus musculus with 8 samples.

Results

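The comparison described here sets the 2 RNA-seq libraries labelled Hdac1 lox/lox with 4-hydroxytamoxifen (4OHT) against the 2 labelled Hdac2 lox/lox with 4OHT, out of 8 libraries in the series. All were made from haemogenic endothelium derived in culture from mouse embryonic stem cells of the C57BL/6 strain. In one line both copies of Hdac1 carry lox sites and in the other both copies of Hdac2 do. 4OHT activates tamoxifen-dependent forms of the Cre recombinase, which cuts out DNA between lox sites, and the other 4 libraries, 2 for each line, received ethanol (EtOH). The libraries were chosen by their labels alone. Of 41128 genes in the count table, 14179 were tested and 13552 of those lie on autosomes 1 to 19. The comparison asks how the lines differ once each has been treated to lose its own deacetylase. Each gene is represented by 1 line, so the deleted gene and any other difference between the lines cannot be told apart in these libraries. The Cre driver, the region between the lox sites and the number of separate cultures are not given in sources used here. The p-values therefore measure the spread between these libraries, which may be technical.

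HDAC1 and HDAC2 are closely related enzymes that remove acetyl groups from histones. They work in shared multiprotein complexes such as NuRD, Sin3 and CoREST, which are recruited to genes and mostly limit their transcription. Haemogenic endothelium is a short-lived vessel lining cell state that gives rise to the earliest blood cells while its endothelial programme is shut down. That passage, the endothelial-to-haematopoietic transition, depends on blood transcription factors such as RUNX1, GFI1 and GFI1B, and TGF-β signalling, named in the title of the series, acts on endothelial and mesenchymal fates.

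The targeted genes were read first. Hdac1 (chromosome 4, 129516104 to 129542713, mm10) read 6.99 and 7.12 CPM in the Hdac1 line after 4OHT and 5.12 and 3.999 CPM in the Hdac2 line, where CPM are counts relative to library size, scaled by TMM, a correction for differences in RNA composition. Its level was thus not lower in the libraries of the line labelled for its deletion, and the log2 difference, always given as the Hdac2 line minus the Hdac1 line, was -0.63 ± 0.24 (SE, adjusted p = 0.137). Hdac2 (chromosome 10, 36974544 to 37001889) stood at 152 and 140.3 CPM in the Hdac1 line and 149 and 149 CPM in the Hdac2 line, and the groups overlapped (log2 difference 0.03 ± 0.14, adjusted p = 0.902, 95% interval -0.29 to 0.36). Its sign changed with upper quartile scaling and with no scaling beyond library size. In the EtOH libraries Hdac1 read 5.78 and 5.60 CPM against 7.45 and 7.16 CPM, and Hdac2 read 148 and 142 CPM against 165 and 151 CPM. Gm10093, a near copy of Hdac1 on chromosome 17, read 110.5 and 115 CPM against 110.4 and 109 CPM, so reads may be split between the copies. Reads from exons that the recombination leaves in place count towards either gene too. These counts do not check the labels, and the groups below are what the libraries were labelled as.

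The 4 libraries held 12164178 to 16730333 counts, and a count of 3, used as a floor, corresponded to 0.171 to 0.267 CPM. The 2 libraries of the Hdac1 line stood further apart than those of the Hdac2 line. Of 10404 autosomal genes with a mean of at least 5 CPM, 375 (3.6%) differed at least 2-fold between the Hdac1 4OHT libraries and 84 (0.807%) between the Hdac2 4OHT libraries. On the first principal component, with 50.2% of the variance, Hdac1 4OHT replicate 1 (-27.9) lay beside Hdac1 EtOH replicate 2 (-21.4), and Hdac1 4OHT replicate 2 (11.6) lay between them and Hdac1 EtOH replicate 1 (37.6). The Hdac2 libraries separated by agent, at -56.0 and -62.4 with 4OHT and 54.8 and 63.7 with EtOH. The difference between the replicates of the Hdac1 4OHT group ran against that of the Hdac1 EtOH group across genes (r = -0.82, over the same 10404 genes, which are not independent). The Hdac1 libraries thus did not sort by their labelled agent, the labels were kept, and counts without each library are given below.

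**Figure D1:**
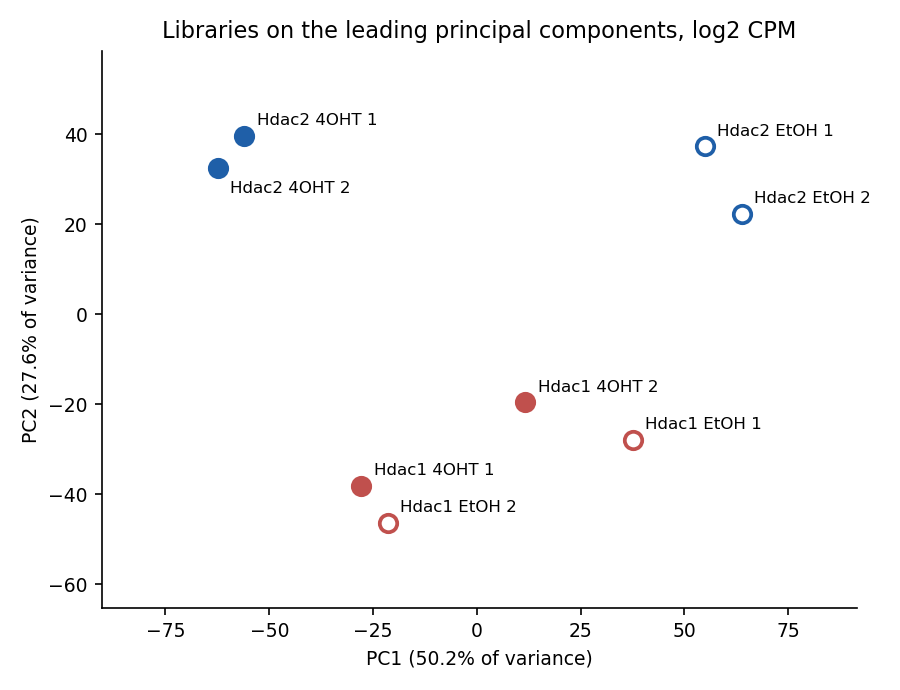
The 8 libraries on the first principal components of log2 CPM, with PC1 on the horizontal and PC2 on the vertical axis and the share of variance on each label. Filled circles are 4OHT and open circles EtOH libraries, red for the Hdac1 and blue for the Hdac2 line. PC2 sets the lines apart, while on PC1 Hdac1 4OHT replicate 1 (-27.9) sits beside Hdac1 EtOH replicate 2 (-21.4).

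Defining genes of endothelium were abundant in all 4 libraries. The summed level of 6 endothelial markers was 5143.5 and 3757 CPM in the Hdac1 line and 5060.2 and 6679.99 CPM in the Hdac2 line. A set of 9 markers of haemogenic endothelium and early blood summed to 1092 and 1386 CPM against 1106 and 1357 CPM, so the groups overlapped. The 4 pluripotency markers (Pou5f1, Nanog, Sox2 and Zfp42) were each under 1 CPM in every 4OHT library. The sum of 4 smooth muscle markers was 2492 and 2137 CPM in the Hdac1 line and 6120.2 and 4079 CPM in the Hdac2 line. Only Acta2 among them set the lines apart. Tagln (1093 and 785 against 1354 and 923 CPM), Cnn1 and Myh11 each overlapped. The 6 macrophage markers summed to 13.7 and 16 CPM against 46.1 and 31.6 CPM, and to 19.3 and 11.5 against 19 and 9.45 CPM with EtOH. The erythroid sum over 6 markers overlapped, at 156 and 409.7 CPM against 355 and 216 CPM. Myl7 and Myh6 of cardiomyocytes, Ttr and Apoa1 of visceral endoderm and Gp9 of platelets were under 1 CPM in all 4 libraries, and Dcx of neurons had no count. In bulk RNA, more cells of a type and more RNA per cell cannot be told apart. The 4 Y-linked genes, Ddx3y, Eif2s3y, Kdm5d and Uty, read 3.93 to 44.8 CPM in the Hdac1 4OHT libraries and at most 0.889 CPM in the Hdac2 4OHT libraries, and Xist was at most 0.0776 CPM in all 4, so the lines also differ in reads from the Y chromosome.

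After 4OHT, 1086 of 13552 autosomal genes (8.01%) differed between the lines at an adjusted p under 0.05 in the quasi-likelihood test of edgeR with Benjamini-Hochberg adjustment, fitted to all 8 libraries. Of these, 508 (3.75% of genes tested) were higher and 578 (4.27%) lower in the Hdac2 line. The difference was at least 2-fold for 743 of them, 400 higher and 343 lower, and at least 4-fold for 256. In all 1086 both libraries of one line lay above both of the other, which also held for 8476 of all genes tested (62.5%). Among genes with at least 5 CPM on average, the called genes with the highest log2 differences included Itgam, Mpeg1, Gja5, Clec4n, Dll4, Esm1, Ccl9, Cxcl12, Airn, Spp1, Plscr2 and Fcgr3. Those with the lowest differences included H19, Scube2, Dppa4, Skap1, Car4, Nefl, Efs, Ripk3, Nrip3, Mtfp1, F5 and Etv2. Some of the called genes named here and below overlap another gene, among them Csf1r, Cx3cr1, Fermt3, Skap1, B2m, Ltbp3, Stab1, Tk1, Hoxd8, Igf2, Cbx7, Pdgfa, Gp1bb, Itga9, Hk1, Rpl5, Nefl and Slc6a9, and reads of the shared stretch cannot be assigned with certainty.

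How many genes passed depended on single libraries. The count was 35 without Hdac1 4OHT replicate 1, 13 without Hdac1 4OHT replicate 2, 1 without Hdac2 4OHT replicate 1 and 0 without Hdac2 4OHT replicate 2, where 2275 autosomal genes still had an unadjusted p under 0.05 in edgeR. It was 2190 and 2189 without Hdac1 EtOH replicates 1 and 2 and 380 and 376 without Hdac2 EtOH replicates 1 and 2, although these libraries are not part of the 4OHT contrast. They enter the fit through the filter, the scaling and the shared estimate of the spread. Where 1 library of a group remained, its spread was taken from the other groups. Of 130 called genes that the naming rule picked, 9, 5, 1 and 0 still passed without each 4OHT library in the same order. Of the 1086 genes, at least 1084 kept their direction under each of these 8 omissions. That was close to fixed in advance, since they were picked in these same libraries and both libraries of one line lay above both of the other. With DESeq2 the count was 1948, with limma-voom 1024 and with the likelihood ratio test of edgeR 2164. With no scaling beyond library size, which moved the median log2 difference of all autosomal genes from -0.01 to -0.12, 413 genes were called higher and 790 lower.

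The lower genes were concentrated on a few chromosomes, a pattern noticed after the values were seen. On chromosomes 8, 11, 14 and 16 the median log2 difference after 4OHT was -0.47, -0.43, -0.32 and -0.29, while on the other 15 autosomes it ran from -0.10 to 0.15. The same chromosomes stood lowest with EtOH, in libraries that share none with the 4OHT contrast, at -0.37, -0.33, -0.44 and -0.26. In every library the median deviation of these chromosomes from the gene means was of 1 sign by line. After 4OHT it was 0.19 and 0.22 on chromosome 8 in the Hdac1 line and -0.26 and -0.27 in the Hdac2 line, and 0.19 and 0.23 against -0.22 and -0.25 on chromosome 11. On chromosomes 8, 11 and 16 each of 4 equal bins of genes, in order of position, had a negative median, from -0.23 to -0.50. On chromosome 14 the first bin stood at 0.20, the next ones at -0.58 and -0.66 and the last at -0.13. The 4 chromosomes hold 2834 of the genes tested (20.9%) and 398 of the 578 lower calls (68.9%), against 34 of the 508 higher calls. Put per gene tested, 14.04% of their genes were called lower, against 1.68% on the other autosomes, where 474 genes were higher and 180 lower. With each gene tested against the median of its own chromosome, 528 genes were called, 334 higher and 194 lower, and 495 of them were among the 1086. DNA copy number was not measured in these libraries, and its part in the result was not tested.

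**Figure D2:**
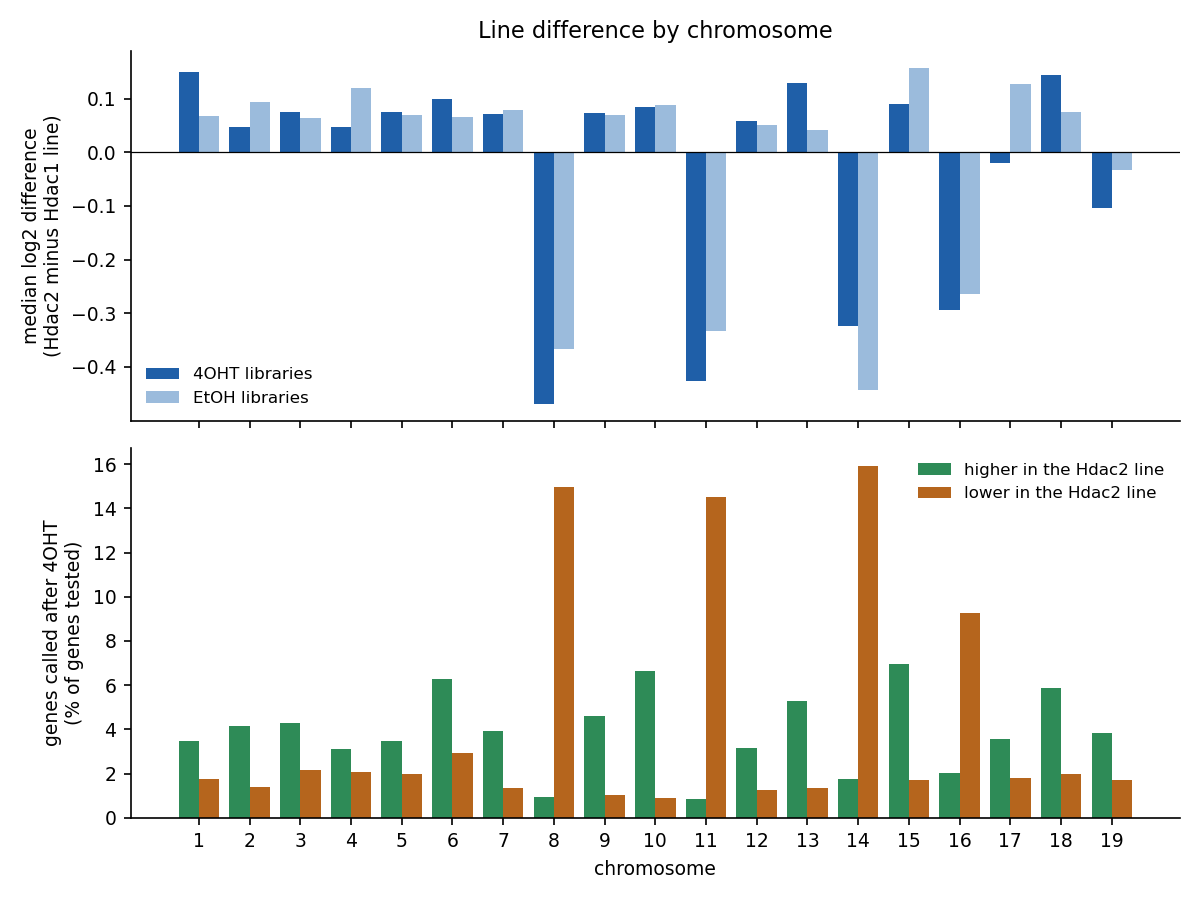
Line difference by autosome. The upper panel shows the median log2 difference (Hdac2 minus Hdac1 line) over the genes tested on each chromosome, dark for 4OHT and light for EtOH libraries. The lower panel shows the percentage of genes called after 4OHT, green for higher and brown for lower in the Hdac2 line. Chromosomes 8, 11, 14 and 16 stand at -0.29 or below after 4OHT and hold most of the lower calls.

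Compared in the EtOH libraries, the lines differed at 1269 autosomal genes (9.36%), 387 higher (2.86%) and 882 lower (6.51%) in the Hdac2 line. One library of that contrast, Hdac2 EtOH replicate 2, held 4.58 to 5.63 CPM of Ddx3y, Eif2s3y and Uty, against at most 0.519 CPM in the other EtOH library of the line. The number of EtOH calls fell without either Hdac2 EtOH library, and its range over the omissions is given below. Of the 1086 genes called after 4OHT, 183 were also called with EtOH in the same direction, 79 higher and 104 lower, which is 16.9% of the 4OHT calls and 14.4% of the EtOH calls. In the opposite direction 18 were called. Another 568 had a log2 difference within 0.5 of zero with EtOH, which does not show that their line difference changed. The change of the line difference was tested directly and passed for 4 autosomal genes (0.0295%), Car4, Hand2, Slc6a9 and Sprr2b, while 3815 had an unadjusted p under 0.05. DESeq2 called 1715 and the likelihood ratio test 1851 genes for this change. EtOH counts and medians are given below for each list described, and the EtOH line difference for most genes. No gene is called particular to 4OHT other than by that test.

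**Figure D3:**
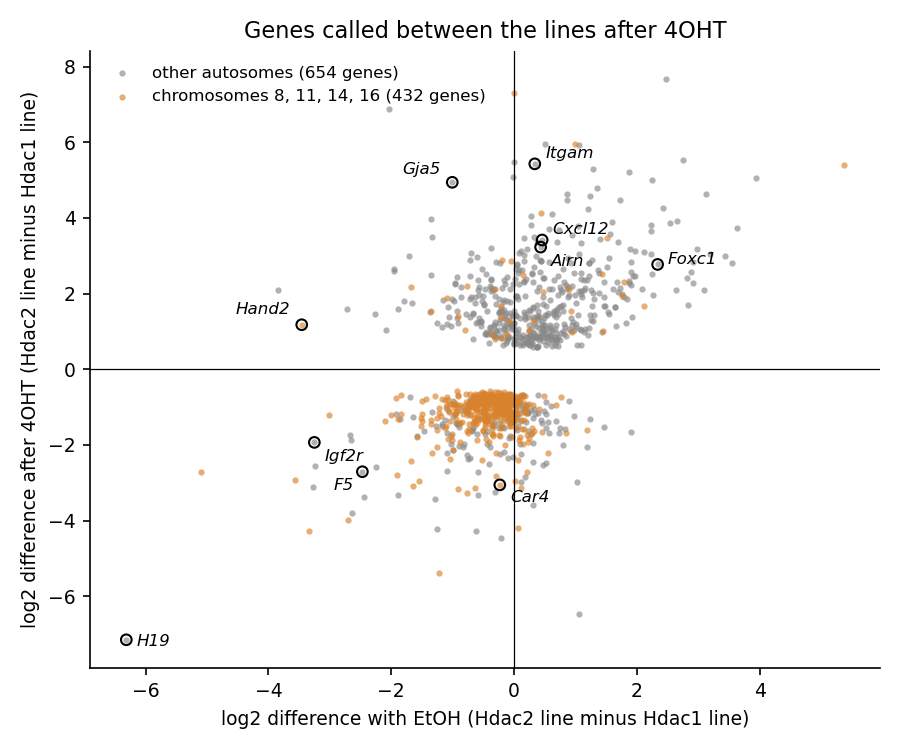
The 1086 genes called after 4OHT, by their log2 line difference with EtOH (horizontal) and after 4OHT (vertical). Each point is a gene, orange on chromosomes 8, 11, 14 and 16 (432 genes) and grey elsewhere (654 genes), and 10 genes are named. H19, F5, Igf2r and Foxc1 stand apart with both agents, Car4, Cxcl12, Itgam and Airn lie near zero on the EtOH axis, and Hand2 has opposite signs.

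Imprinted genes, which are expressed mainly from the copy inherited from one parent, held the gene with the most negative difference after 4OHT. H19 (chromosome 7, 142575529 to 142578143), a noncoding RNA of the maternal copy, stood at 2020.2 and 1496 CPM in the Hdac1 4OHT libraries and 12 and 12.7 CPM in the Hdac2 4OHT libraries. The lines did not overlap, and the log2 difference was -7.15 ± 0.57 (adjusted p = 0.00571). With EtOH it stood at 1537 and 1751 CPM against 10.1 and 31.6 CPM (log2 difference -6.31 ± 0.55, adjusted p = 0.00559), so the line difference was present without 4OHT. Igf2, the neighbouring paternally expressed growth factor gene, stood at 6422 and 6467 CPM in the Hdac1 line and 14009 and 13893 CPM in the Hdac2 line after 4OHT. It was higher by 1.11 ± 0.21 (adjusted p = 0.0274), and by 0.999 ± 0.21 with EtOH (adjusted p = 0.0333). H19 and Igf2 share an imprinting control region that, on the maternal copy, is bound by CTCF.

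Igf2r and Airn, a second imprinted pair, also differed in opposite directions. Igf2r (chromosome 17, 12682406 to 12769664, minus strand), which encodes the receptor that clears IGF2, stood at 407 and 342 CPM in the Hdac1 line and 93.7 and 103 CPM in the Hdac2 line (log2 difference -1.93 ± 0.21, adjusted p = 0.013). With EtOH the values were 262.1 and 378 against 33.1 and 34.1 CPM (-3.25 ± 0.22, adjusted p = 0.00559). Both Hdac2 4OHT libraries thus lay below both Hdac1 libraries of either agent, but above the Hdac2 EtOH libraries. Airn (chromosome 17, 12741311 to 12860122, plus strand), the paternal antisense transcript that silences Igf2r in cis in many tissues, stood at 1.18 and 1.31 CPM against 9.62 and 14 CPM after 4OHT (log2 difference 3.23 ± 0.34, adjusted p = 0.013). Its EtOH values were 1.75 and 2.45 and 2.98 and 2.67 CPM (adjusted p = 0.382). The genes overlap on opposite strands, and the strand setting of the counting was not given in sources used here, so reads of the overlap may be shared. Their promoter windows, the 250 bases before each start in the RefSeq table on GRCm38.p6, are shown because this antisense pair moved apart. Each CG dinucleotide is in capitals.
Igf2r (chr17:12769707-12769956, - strand): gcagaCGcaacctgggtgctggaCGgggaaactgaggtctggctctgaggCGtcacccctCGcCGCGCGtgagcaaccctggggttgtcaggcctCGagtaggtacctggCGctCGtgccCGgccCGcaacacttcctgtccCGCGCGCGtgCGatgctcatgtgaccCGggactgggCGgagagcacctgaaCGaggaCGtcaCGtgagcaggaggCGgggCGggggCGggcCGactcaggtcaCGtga
Airn (chr17:12741061-12741310, + strand): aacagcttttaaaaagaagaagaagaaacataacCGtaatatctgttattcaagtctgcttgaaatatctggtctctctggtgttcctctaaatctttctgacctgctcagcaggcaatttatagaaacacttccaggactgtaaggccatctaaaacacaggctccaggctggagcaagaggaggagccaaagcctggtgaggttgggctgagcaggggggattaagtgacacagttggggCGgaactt
The Igf2r window holds 27 CG dinucleotides, as many as or more than which occur in 8.84% of 31365 autosomal windows of this length, and the Airn window holds 2, against a median of 6. Methylation of these sites was not measured here.

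Across the imprinted list, 11 of 28 tested members were called, 9 higher and 2 lower, with a median log2 difference of 0.74, against 8.01% called and a median of -0.01 over all autosomal genes. Grouped after the values were seen by the parental copy that textbooks give as the active one, the 18 paternally expressed genes held all 9 higher calls and none of the lower, and 17 had a positive difference (median 1.10). The 9 maternally expressed genes held the 2 lower calls, H19 and Igf2r, and 4 had a positive difference (median -0.11). Peg10, a retrotransposon-derived gene needed in placenta, stood at 1929.6 and 1234 CPM against 4449 and 6101 CPM (1.74 ± 0.40, adjusted p = 0.0424, -0.30 ± 0.39 with EtOH). Magel2, a gene of the Prader-Willi region, stood at 2.12 and 2.33 against 8.15 and 14.8 CPM (2.35 ± 0.39, adjusted p = 0.023, -0.58 ± 0.40 with EtOH). Plagl1, Impact, Zrsr1, Sgce and Peg12 were the other higher members, by 0.64 to 1.97. Dlk1 stood at 0.785 and 13.9 against 38.3 and 38 CPM and did not pass (adjusted p = 0.259), its Hdac1 libraries lying far apart. With EtOH 3 of the 18 paternally expressed genes were called higher and 2 of the 9 maternally expressed genes lower.

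Where called, genes of macrophages and granulocytes, cells of the innate immune system, were higher in the Hdac2 line after 4OHT. Of 28 list members with counts deposited, 20 passed the filter on low counts, and 6 of these passed only through the Hdac2 4OHT libraries, where they are high, so that they had to differ: C1qb, C1qc, Csf1r, Ctss, Cx3cr1 and Emr1, each called higher. Among the 14 others, which would have passed without those libraries, 4 were called higher (Itgam, Fcgr3, Cd14 and Tyrobp) and 0 lower in edgeR, with a median log2 difference of 0.88, and 0 of the 20 were called with EtOH. Itgam, the integrin chain CD11b, stood at 0.628 and 0.114 CPM in the Hdac1 line and 14.7 and 15.5 CPM in the Hdac2 line (5.43 ± 0.84, adjusted p = 0.0216, and 4.57 to 6.95 without 1 library, with 1 Hdac1 value under the floor, 0.34 ± 0.85 with EtOH). Csf1r, the receptor that macrophages need for survival, stood at 0.236 and 0.456 against 11.6 and 6.58 CPM (4.64 ± 0.71, adjusted p = 0.0214, 3.13 ± 0.85 with EtOH), and Fcgr3, an antibody receptor, at 1.02 and 1.42 against 9.86 and 9.15 CPM (2.94 ± 0.43, adjusted p = 0.0188, 0.88 ± 0.40 with EtOH). For these 3 genes every Hdac2 4OHT library exceeded every other library of the series. Cx3cr1, a chemokine receptor, had 2 counts over the Hdac1 libraries and 109 over the Hdac2 libraries. The complement gene C1qc had 0 and 24 counts and was at least 4.86-fold higher against a floor of 3 counts per library, while C1qb had 4 and 48, Ctss 1 and 39, and Emr1 (F4/80) 1 and 46 counts. The summed macrophage markers given above moved with this list, and all 6 are members of it, 4 of them called. Not every member followed: Lyz2 stood at 6.36 and 7.97 against 10.9 and 7.46 CPM, Cd68 at 5.89 and 5.64 against 6.36 and 4.53 CPM, and the granule enzyme gene Mpo at 13 and 20.7 against 3.65 and 4.18 CPM (-2.11 ± 0.64, adjusted p = 0.0826). With EtOH the median of the 20 was 0.78.

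Of 23 tested genes of leukocyte surface and signalling, 9 were higher and 1 lower (43.5% called against 8.01% of all genes, median 0.80). With EtOH 0 were higher and 1 lower (median 0.19). Of the 23, 2 passed the filter only through the Hdac2 4OHT libraries, and the 1 of them called, Ptprc, had to differ. Among the 21 others 8 were higher and 1 lower. Ptprc, the pan-leukocyte phosphatase CD45, stood at 0.236 and 0.171 CPM against 2.95 and 4.18 CPM (4.10 ± 0.56, adjusted p = 0.0177, 0.61 ± 0.58 with EtOH), and Csf2rb, a shared chain of cytokine receptors, at 9.26 and 16.3 against 63.2 and 63.1 CPM (2.29 ± 0.42, 0.81 ± 0.41 with EtOH). Fermt3, the kindlin of blood cells, was the lower member, at 87.5 and 116 against 44.8 and 41.5 CPM (-1.24 ± 0.21, adjusted p = 0.0232, -0.43 ± 0.20 with EtOH). Outside the lists, Spp1 (osteopontin) stood at 8.56 and 8.20 against 84.7 and 66.5 CPM and Mpeg1, the macrophage pore-forming protein gene, at 0.393 and 0.285 against 13.8 and 9.15 CPM (adjusted p = 0.0276 and 0.00943). Clec4n, a C-type lectin gene of myeloid cells, stood at 0.785 and 0.114 against 11.2 and 9.69 CPM (4.62 ± 0.92, and 3.72 to 6.42 without 1 library, with 1 Hdac1 value under the floor), and Ccl9, a chemokine gene of these cells, at 4.08 and 1.42 against 35.1 and 24.3 CPM (3.46 ± 0.74, 1.503 ± 0.70 with EtOH). Fitted differences of genes with few counts in the Hdac1 line, such as Ptprc and Mpeg1, depend on the prior count that edgeR adds. When each gene was tested against its chromosome's median, 7 macrophage members, those admitted through 1 group included, and 3 leukocyte members were called higher. Without Hdac1 4OHT replicate 1 none of the macrophage members passed in edgeR, nor without replicate 2.

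PU.1, encoded by Spi1, is the main transcription factor of the myeloid lineage, and it binds purine-rich sites with the core GAGGAA. Spi1 itself stood at 6.67 and 8.20 CPM against 13 and 9.42 CPM and did not pass (0.59 ± 0.42, adjusted p = 0.392). RefSeq promoter windows were matched for 6 of the 10 called macrophage genes, and GAGGAA occurred on either strand in 5 of the 6, against 23.4% of all 31365 autosomal windows of 250 bases. The longer GAGGAAGT occurred in 1 of the 6 macrophage genes, C1qc, against 2.48% of all windows, and it contains the shorter one. Windows of macrophage genes with the core are shown 5′ to 3′ on the gene's strand, with GAGGAA or its reverse complement TTCCTC in capitals.
Itgam (chr7:128062390-128062639, + strand): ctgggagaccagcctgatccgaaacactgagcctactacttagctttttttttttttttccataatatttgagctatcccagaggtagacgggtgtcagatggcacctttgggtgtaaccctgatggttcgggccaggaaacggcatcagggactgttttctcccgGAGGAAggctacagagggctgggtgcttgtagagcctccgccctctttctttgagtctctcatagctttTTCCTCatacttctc
C1qc (chr4:136892915-136893164, - strand): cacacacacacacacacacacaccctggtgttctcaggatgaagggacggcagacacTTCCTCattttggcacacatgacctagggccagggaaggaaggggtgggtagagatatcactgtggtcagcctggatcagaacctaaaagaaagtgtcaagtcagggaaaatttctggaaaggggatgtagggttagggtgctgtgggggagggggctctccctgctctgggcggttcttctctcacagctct
C1qb (chr4:136886201-136886450, - strand): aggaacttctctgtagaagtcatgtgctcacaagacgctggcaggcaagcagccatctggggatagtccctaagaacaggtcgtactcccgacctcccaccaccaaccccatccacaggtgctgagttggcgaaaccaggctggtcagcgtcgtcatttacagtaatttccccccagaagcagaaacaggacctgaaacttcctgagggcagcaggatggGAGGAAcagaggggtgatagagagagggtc
Ctss (chr3:95526536-95526785, + strand): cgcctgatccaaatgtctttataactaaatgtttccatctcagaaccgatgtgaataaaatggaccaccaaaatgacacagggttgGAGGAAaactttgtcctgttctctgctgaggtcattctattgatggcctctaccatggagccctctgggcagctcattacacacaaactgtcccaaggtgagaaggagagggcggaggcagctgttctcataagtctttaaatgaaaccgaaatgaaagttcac
Fcgr3 (chr1:171059404-171059653, - strand): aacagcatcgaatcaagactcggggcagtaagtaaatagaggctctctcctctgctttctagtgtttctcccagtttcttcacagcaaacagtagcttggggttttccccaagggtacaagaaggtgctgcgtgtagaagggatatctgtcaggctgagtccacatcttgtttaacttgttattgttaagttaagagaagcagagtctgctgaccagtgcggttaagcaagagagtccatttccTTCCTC
In Itgam, where there are 2 matches, one lies near the start, and in Fcgr3, at the first of its listed starts, the match lies directly before it. Matches are letters in a window, and binding was not measured here.

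Genes of TGF-β signalling were higher in the Hdac2 line where they were called. Of 20 tested ligands, latency proteins and receptors, 5 were higher and 0 lower (25.0% called, median 0.68). Of 22 TGF-β-responsive genes 4 were higher and 0 lower (18.2% called, median 0.75). Over all genes 8.01% were called, and 3.75% were called higher. Tgfbr2, the receptor chain that binds the ligand, stood at 104 and 112 CPM in the Hdac1 line and 214 and 299.997 CPM in the Hdac2 line (1.25 ± 0.22, adjusted p = 0.0249, -0.31 ± 0.22 with EtOH). Acvrl1, the endothelial type I receptor ALK1, stood at 111 and 181 against 333 and 419 CPM (1.37 ± 0.25, adjusted p = 0.0265, 0.92 ± 0.25 with EtOH). Ltbp3 and Ltbp1, which hold latent TGF-β in the matrix, stood at 2.28 and 1.71 against 9.62 and 7.82 CPM (2.14 ± 0.35, -0.37 ± 0.35 with EtOH) and at 41.8 and 29.9 against 80 and 67.9 CPM (1.05 ± 0.24, adjusted p = 0.04). For Ltbp1 the direction was the opposite with EtOH, where it stood at 31.7 and 44.7 against 9.66 and 8.31 CPM (-2.08 ± 0.25, adjusted p = 0.0144), and the change of the line difference was 3.13 ± 0.35 (adjusted p = 0.054). Fstl1 was the remaining member called (1.03 ± 0.22, 0.23 ± 0.22 with EtOH).

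The ligands themselves did not pass. Tgfb1 stood at 144 and 223 against 131 and 185 CPM (-0.22 ± 0.31), Tgfb2 at 125 and 89.6 against 218 and 183 CPM (0.90 ± 0.26, adjusted p = 0.0704) and Tgfb3 at 0.628 and 2.22 against 5.66 and 2.75 CPM. Nor did the signalling receptor Tgfbr1 (0.34 ± 0.23) or the co-receptor Eng (0.94 ± 0.29, adjusted p = 0.0815). Of 15 Smads and Smad regulators, 1 was called, a share of 6.67% against 8.01% of all genes. It was Smad3, the signal carrier of TGF-β receptors, at 55.4 and 60.5 against 86.8 and 87.9 CPM (0.59 ± 0.14, adjusted p = 0.0431, 0.37 ± 0.14 with EtOH). Smad7, the feedback inhibitor, stood at 80.2 and 50.9 against 129.98 and 143 CPM and did not pass (adjusted p = 0.153). Among responsive genes, Col3a1, a fibrillar collagen, stood at 4.63 and 6.83 against 51.5 and 33.1 CPM (2.87 ± 0.35, adjusted p = 0.0152, 0.43 ± 0.35 with EtOH), and Acta2, smooth muscle actin, which makes up most of the smooth muscle marker sum, at 1356 and 1333 against 4740.2 and 3134 CPM (1.55 ± 0.26, adjusted p = 0.0232, 0.39 ± 0.25 with EtOH). Timp3 (1.29 ± 0.19, -0.09 ± 0.19 with EtOH) and Tgfbi (2.13 ± 0.50) were the other two, and Tgfbi differed as much with EtOH (2.08 ± 0.50). Ctgf, a matricellular protein gene, stood at 295 and 310.2 against 597 and 458 CPM without passing (adjusted p = 0.151). Col1a2 had the other sign, at 60.8 and 135 against 27.6 and 20.8 CPM (-2.02 ± 0.51, adjusted p = 0.0512). In the BMP list, with 18 tested, Id2 and Msx1 were higher and Bmp2 lower (16.7% called against 8.01% of all genes). Bmp2 stood at 172 and 217 against 71.5 and 60.5 CPM (-1.56 ± 0.25, adjusted p = 0.0216, -0.17 ± 0.24 with EtOH). With EtOH the median of the ligand and receptor list was -0.18, with 0 higher and 1 lower in edgeR, and that of the responsive list -0.35, with 1 higher.

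Endothelial genes differed unevenly. Of 35 tested identity genes, 5 were higher and 2 lower (median 0.38), against 2 higher and 1 lower with EtOH (median -0.10). Vwf, the clotting adhesion protein gene, stood at 13.5 and 6.61 CPM against 46.2 and 55.1 CPM (2.34 ± 0.37, adjusted p = 0.0216, 0.17 ± 0.36 with EtOH), and Stab1, a scavenger receptor gene, at 24.7 and 22.6 against 80 and 127 CPM (2.13 ± 0.30, 0.89 ± 0.29 with EtOH). Emcn, Clec14a and Tie1 were also higher, and Tal1 and Etv2, transcription factors that specify blood and endothelium, lower. Etv2 stood at 5.81 and 11.2 against 2.10 and 0.977 CPM (-2.46 ± 0.56, adjusted p = 0.0399, 0.31 ± 0.48 with EtOH). The junction genes Cdh5 (2471 and 1664 against 2342 and 3026 CPM) and Pecam1 (1106 and 854 against 947 and 1155 CPM) overlapped or did not pass (adjusted p = 0.442 and 0.809).

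Notch and arterial genes held 4 higher and 0 lower of 23 tested (17.4% called against 8.01% of all genes), with a median of 1.16. With EtOH 1 was higher and 0 lower (median 0.13). Gja5, the arterial connexin 40, stood at 1.73 and 0.854 CPM in the Hdac1 line and 18.8 and 59.1 CPM in the Hdac2 line (4.94 ± 0.61, adjusted p = 0.0152). With EtOH it stood at 2.67 and 2.60 against 1.36 and 1.24 CPM. Dll4, the arterial Notch ligand, stood at 0.550 and 2.96 against 12.2 and 43.4 CPM (3.91 ± 0.96, adjusted p = 0.0484), and its EtOH values, 5.89 and 1.85 against 13.9 and 34.7 CPM, spread as widely. Notch4 stood at 45.9 and 23.6 against 138 and 224 CPM (2.39 ± 0.49, 0.19 ± 0.48 with EtOH), and Lfng, which modifies Notch receptors, at 3.06 and 4.10 against 12.5 and 19.3 CPM (2.14 ± 0.37, -0.20 ± 0.38 with EtOH). The Notch target genes Hey1 (2.60 ± 0.65, adjusted p = 0.0509) and Hey2 (1.59 ± 0.48, adjusted p = 0.0823) did not pass. In Gja5 and Dll4 the 2 Hdac2 4OHT libraries differed from each other more than 3-fold, but both exceeded both Hdac1 4OHT libraries. Cxcl12, the chemokine that guides blood stem cells, stood at 18.7 and 15.9 CPM against 211 and 158 CPM (3.42 ± 0.32, adjusted p = 0.00918), with 7.69 and 14.3 against 16.9 and 13.3 CPM with EtOH.

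**Figure D4:**
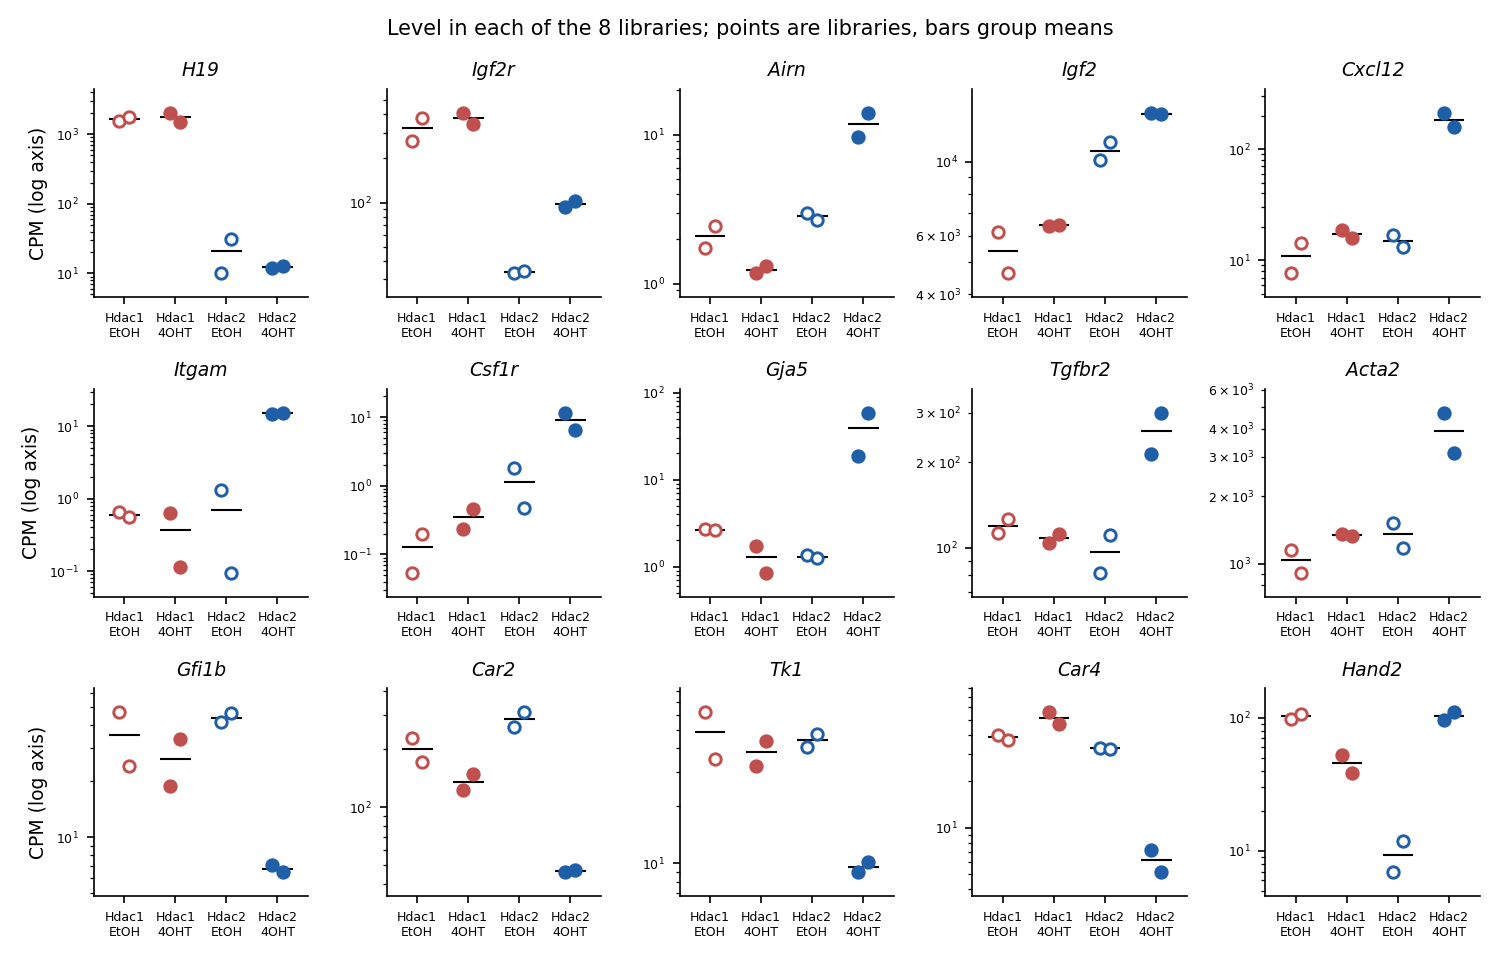
Level of 15 genes in each of the 8 libraries, in CPM on a log axis that differs by panel. Points are libraries, open for EtOH and filled for 4OHT, red for the Hdac1 and blue for the Hdac2 line, and short bars are group means. Both Hdac2 4OHT libraries lie outside the range of the Hdac1 4OHT libraries in every panel. That was fixed by choosing genes called after 4OHT, and such separation held for 62.5% of all genes tested. H19 and Igf2r separate the lines with EtOH as well.

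Blood transcription factors were more often called lower than higher in the Hdac2 line, with 6 lower and 1 higher of 28 tested. The share called was 25.0% against 8.01% of all genes, and the median was -0.12. With EtOH 4 were lower and 0 higher (median -0.42). Gfi1b, the repressor that recruits histone-modifying complexes in early blood, stood at 18.8 and 33.8 CPM against 7.06 and 6.49 CPM (-1.96 ± 0.39, adjusted p = 0.0298, 0.31 ± 0.36 with EtOH). Tal1 stood at 272 and 238 against 142 and 153 CPM (-0.79 ± 0.17, -0.27 ± 0.17 with EtOH) and Lmo2, its partner, at 122 and 229 against 66.7 and 74.6 CPM (-1.31 ± 0.32, adjusted p = 0.0486). For Lmo2 the EtOH libraries had the other sign, at 146 and 96.6 against 312 and 258 CPM (1.23 ± 0.32, adjusted p = 0.0509). Meis1, Ikzf1 and Zfpm1, the other lower members, lie on chromosomes 11, 11 and 8, and Meis1 and Zfpm1 were lower with EtOH too (-1.85 ± 0.24 and -0.95 ± 0.19). The 11 members on chromosomes 8, 11, 14 and 16 had a median of -0.70. Elsewhere the 17 members had a median of 0.19, with 3 lower and 1 higher. Tested against their chromosome's median, 2 of the 28 were called lower and 0 higher. Runx1, on chromosome 16, stood at 146 and 112 against 65.8 and 80.4 CPM (-0.82 ± 0.23, adjusted p = 0.0656), and Gfi1 at 34.3 and 18.1 against 13.1 and 9.77 CPM (-1.19 ± 0.34, adjusted p = 0.0734), neither passing. Cebpa, a myeloid factor, was the higher member, at 0.236 and 0.171 against 1.47 and 1.07 CPM (2.63 ± 0.64, adjusted p = 0.0477, 0.13 ± 0.56 with EtOH), with 6 counts over the Hdac1 4OHT libraries. Itga2b, the surface marker CD41 of the first blood progenitors, was lower, at 99.0 and 169 against 48.3 and 42.4 CPM (-1.56 ± 0.31, adjusted p = 0.0295), on chromosome 11, with 169 and 109 against 188 and 152 CPM with EtOH. Of the 18 CD41 and megakaryocyte genes tested, 27.8% were called, against 8.01% of all genes. The other 4 called were higher, among them Tubb1, platelet tubulin, at 3.14 and 2.33 against 20.4 and 12.1 CPM (2.58 ± 0.36, 1.90 ± 0.33 with EtOH).

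The erythroid list was split, with 2 higher and 2 lower of 31 tested (12.9% called against 8.01% of all genes) and a median of -0.15. Car2, the carbonic anhydrase of red cells, stood at 123 and 148 CPM against 46.1 and 47.3 CPM (-1.54 ± 0.20, adjusted p = 0.0164, 0.52 ± 0.20 with EtOH). Cpox, a haem synthesis gene on chromosome 16, was lower by a smaller margin (-0.72 ± 0.17). The embryonic globin Hbb-y stood at 5.03 and 7.12 against 37.4 and 16.8 CPM (2.15 ± 0.43, adjusted p = 0.0311, 1.73 ± 0.41 with EtOH), and Add2, a membrane skeleton gene, at 1.81 and 1.139 against 7.60 and 9.60 CPM (2.56 ± 0.39, 1.39 ± 0.37 with EtOH). The globin genes Hbb-bh1 (-0.57 ± 0.55) and Hba-x (0.59 ± 0.70) and the regulator Klf1 (1.18 and 8.66 against 2.33 and 2.40 CPM) did not pass, and their Hdac1 libraries differed from each other 2-fold or more. With EtOH the list's median was 0.94, with 1 higher and 1 lower.

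Where called, proliferation genes were lower in the Hdac2 line after 4OHT. Of 38 tested DNA replication genes 9 were lower and 0 higher in edgeR (23.7% against 8.01% of all genes, median -0.51), and 2 of the 38 had a positive difference. Tested against the median of their chromosome 2 of the 38 were lower, and outside chromosomes 8, 11, 14 and 16 1 of 25. Of the 9, 8 lie on chromosomes 8, 11 and 16, among them Tk1, which salvages thymidine, at 32.5 and 43.9 CPM against 9.002 and 10.1 CPM (-2.000 ± 0.30, adjusted p = 0.0209, -0.14 ± 0.28 with EtOH), Mcm5, part of the replicative helicase, at 371 and 432 against 176 and 201 CPM (-1.09 ± 0.26, 0.04 ± 0.25 with EtOH) and Cdt1, a licensing factor, at 117 and 145 against 61.2 and 55.0 CPM (-1.17 ± 0.22, 0.11 ± 0.21 with EtOH). Rfc3, on chromosome 5, was the remaining one (25.9 and 31.0 against 16.7 and 15.3 CPM, -0.83 ± 0.19). The 13 members on chromosomes 8, 11, 14 and 16 had a median of -1.04 and the 25 others -0.41. With EtOH the list's median was 0.09, with 1 higher. Of 29 mitosis genes 3 were lower (median -0.28), a share of 10.3% against 8.01% of all genes. Aurkb and Top2a lie on chromosome 11 and Ccnb2 on chromosome 9. Lower outside chromosomes 8, 11, 14 and 16 was 1 of 26 mitosis genes, and against the chromosome median 2 of 29. With EtOH 5 mitosis genes were lower (median -0.15), Top2a among them (-1.09 ± 0.17, adjusted p = 0.0202). All 34 cytosolic ribosomal protein genes had a negative difference (median -0.39), also with each of the 3 other scalings. Over all 13552 autosomal genes 6709 had a positive difference. Of the 34, 1 passed (2.94% against 8.01% of all genes), Rpl5 (-1.11 ± 0.25, adjusted p = 0.039, 0.16 ± 0.24 with EtOH). The EtOH median of the 34 was 0.75.

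**Figure D5:**
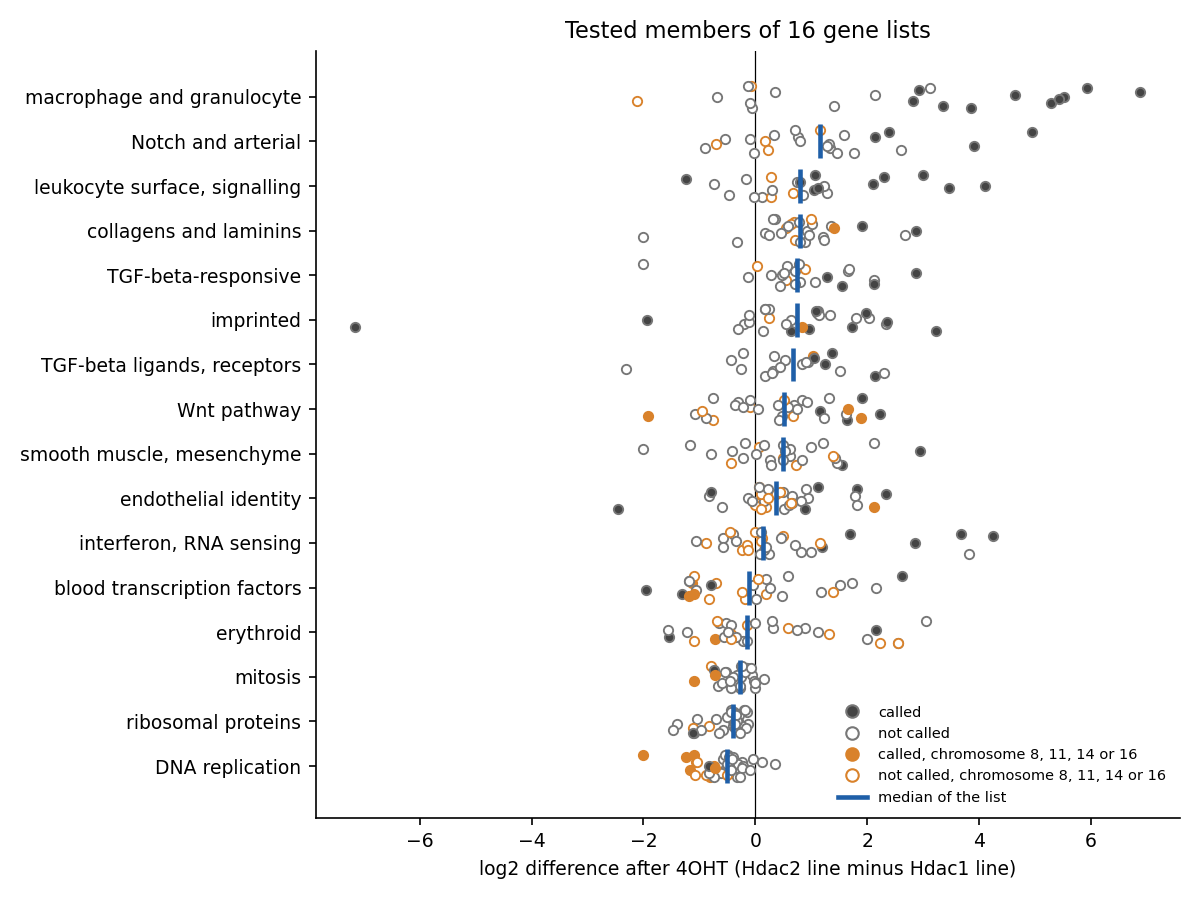
Log2 difference after 4OHT (horizontal) of every tested autosomal member of 16 gene lists (rows). Each circle is a gene, filled where called and orange on chromosomes 8, 11, 14 and 16, and the blue bar is the list's median. No bar is drawn for macrophage and granulocyte genes, since 6 of the 20 passed the filter only through the libraries in which they are high. DNA replication genes have a median of -0.51, with 8 of their 9 called members in orange.

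Extracellular matrix genes were called at shares of 8.70% to 14.8%, against 8.01% of all genes, of which 3.75% were called higher. Higher were 3 of 26 collagens and laminins (11.5%, median 0.79) and 2 of 23 metalloproteinases and their inhibitors (8.70%, median 0.70). Of 27 integrin and adhesion genes 3 were higher and 1 lower (14.8% called, median 0.64). With EtOH the medians were -0.49, -0.22 and -0.28. Col12a1 stood at 23.8 and 25.1 CPM against 121 and 62.1 CPM (1.90 ± 0.31, adjusted p = 0.0216, -0.87 ± 0.32 with EtOH), and Itga6, a laminin receptor chain, at 72.4 and 98.2 against 209.8 and 259 CPM (1.46 ± 0.21, 0.71 ± 0.20 with EtOH). Itgb4, on chromosome 11, was the lower member (-1.58 ± 0.36). None of 17 YAP and TEAD targets passed in edgeR, while their median was 0.57, and -0.49 with EtOH. An unadjusted p under 0.05 was found for 4 of the 17, and for 3757 of all 13552 autosomal genes. Of 34 endothelin, natriuretic and growth factor genes 4 were higher (11.8% called, median 0.78), against 3 higher and 4 lower with EtOH (median -0.26). Among the 4 was Pdgfa, at 3.14 and 1.31 against 15 and 15.6 CPM (2.81 ± 0.57, -0.23 ± 0.60 with EtOH).

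Wnt pathway genes held 6 higher and 1 lower of 31 tested (22.6% called against 8.01% of all genes, median 0.52). With EtOH 3 were higher (median 0.04). Wnt5a stood at 16.3 and 16.3 CPM against 65 and 38.3 CPM (1.66 ± 0.25, adjusted p = 0.0204) and differed with EtOH too, at 12.3 and 13.6 against 55.8 and 56.6 CPM (2.12 ± 0.25). Lef1, which carries the Wnt signal to DNA, and Dkk1, a Wnt inhibitor, were likewise higher with both agents (1.64 ± 0.29 and 1.64 ± 0.29, and 2.23 ± 0.40 and 1.89 ± 0.41). Fzd1, Fzd8 and Sfrp1 were higher and Wnt3, on chromosome 11, lower (-1.91 ± 0.41). Of 20 Hox and Cdx genes, Hoxd8 and Hoxd9 were higher and the cofactor Meis1 lower (15.0% called against 8.01% of all genes). The median was 1.31, or 0.77 without 4 members that passed the filter only through the Hdac2 4OHT libraries. Hoxd9 stood at 1.26 and 2.16 against 9.31 and 9.15 CPM after 4OHT and 4.09 and 1.45 against 18 and 21.1 CPM with EtOH.

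Interferon and RNA-sensing genes held 5 higher and 0 lower of 30 tested (16.7% called against 8.01% of all genes), with a median of 0.13. Of the 30, 2 passed the filter only through the Hdac2 4OHT libraries, 1 of them called. Usp18 stood at 0.157 and 0.228 CPM against 2.64 and 2.58 CPM (3.67 ± 0.50, adjusted p = 0.0174, 0.73 ± 0.47 with EtOH). It had 6 counts over the Hdac1 4OHT libraries, with 1 value under the floor, so the size of its difference is not resolved. Ddx58, the RNA sensor RIG-I, stood at 13.8 and 11.3 against 28.3 and 29.3 CPM (1.20 ± 0.25). For Ddx58 the direction was the opposite with EtOH (6.38 and 9.90 against 3.82 and 3.82 CPM, -1.09 ± 0.26, adjusted p = 0.0442), and with EtOH 8 members of the list were lower and 1 higher (median -0.57). Of 11 MHC class I genes 2 were higher and 0 lower (18.2% called), but the median was -0.23 and 5 had a positive difference. One of the 2, the light chain gene B2m, stood at 322 and 289 against 766 and 759 CPM (1.32 ± 0.17, adjusted p = 0.0152, 0.33 ± 0.16 with EtOH). Of 27 immediate early and MAPK feedback genes 3 were higher, a share of 11.1% against 8.01% of all genes (median 0.23), and with EtOH 5 were higher (median 0.48), with Dusp6 called under both agents. Fos stood at 13.7 and 16.7 against 72.6 and 73.2 CPM (2.26 ± 0.30, adjusted p = 0.0164, 0.08 ± 0.30 with EtOH) and Egr1 at 24 and 28.2 against 57.2 and 86.6 CPM (1.46 ± 0.23, -0.67 ± 0.23 with EtOH).

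Of 37 tested genes of HDAC complexes and other HDACs, 3 were lower and 0 higher in edgeR, a share of 8.11% against 8.01% of all genes, and with EtOH 5 were lower (median -0.28). They were Hdac5 (-0.73 ± 0.15), Ing1 (-0.64 ± 0.15) and Chd3 (-1.37 ± 0.34), all on chromosomes 8 and 11. In the DNA methylation and Polycomb list Cbx7, a Polycomb reader, was higher at 7.54 and 6.83 CPM against 36.5 and 37.2 CPM (2.36 ± 0.34, adjusted p = 0.0188, 1.13 ± 0.34 with EtOH) and Pcgf2, on chromosome 11, lower (-0.86 ± 0.18), and with EtOH 7 of its 26 tested members were lower. The share of this list called after 4OHT, 7.69%, was near the 8.01% of all genes. No member passed in edgeR of the lists of cholesterol synthesis (22 tested, 2 at an unadjusted p under 0.05), ATF4 stress (33, 9), heat shock (23, 3) and cardiac sarcomere genes (14, 3). Over all 13552 autosomal genes 3757 had an unadjusted p under 0.05 in that test.

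Several genes were called between the lines in the same direction with both agents. F5, coagulation factor V, stood at 45.7 and 53.2 CPM against 7.06 and 8.09 CPM after 4OHT (-2.71 ± 0.18, adjusted p = 0.00456) and at 43.5 and 38.8 against 7.39 and 7.45 CPM with EtOH (-2.47 ± 0.18). Ripk3, the kinase of necroptosis, on chromosome 14, stood at 51.1 and 74.0 against 9.86 and 8.26 CPM after 4OHT (-2.79 ± 0.23) and 35 and 31.5 against 8.82 and 8.88 CPM with EtOH (-1.91 ± 0.22). Foxc1 (2.77 ± 0.35 and 2.33 ± 0.34), the protocadherin Pcdhb22 (2.09 ± 0.28 and 2.63 ± 0.28) and Tspan15 (1.97 ± 0.36 and 2.27 ± 0.35) were higher in the Hdac2 line with both. Nefl, a neurofilament gene on chromosome 14 that overlaps Nefm, was lower with both (-2.93 ± 0.65 and -3.56 ± 0.67).

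Other genes differed in 1 direction after 4OHT and in the other with EtOH. Hand2, a transcription factor of heart and limb, stood at 52.4 and 38.7 CPM against 95.6 and 110.3 CPM after 4OHT (1.18 ± 0.26, adjusted p = 0.0377) and at 98.0 and 106 against 6.94 and 11.8 CPM with EtOH (-3.46 ± 0.29, adjusted p = 0.00559). The change of its line difference was 4.63 ± 0.38 (adjusted p = 0.0192). Slc6a9, the glycine transporter of red cell precursors, stood at 23.9 and 24.1 against 9.62 and 6.93 CPM after 4OHT and 17.7 and 16.6 against 52.2 and 42.2 CPM with EtOH (change -2.996 ± 0.30, adjusted p = 0.0335). Bcat1 was lower after 4OHT (-1.65 ± 0.32) and higher with EtOH (1.90 ± 0.32), and Cntln, Nexn, Pdgfd and Tox2 had the reverse pattern, without passing the test of the change. Car4, a membrane carbonic anhydrase gene on chromosome 11, stood at 56.1 and 46.6 CPM against 7.14 and 5.15 CPM after 4OHT (-3.06 ± 0.21, adjusted p = 0.00456). With EtOH it stood at 39.7 and 37 against 32.7 and 32.5 CPM (-0.23 ± 0.19). Its change of -2.82 ± 0.28 passed (adjusted p = 0.0335).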

How the data were processed

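RNA of 8 samples was sequenced after strand-specific library preparation, per the labels' protocols. The values are raw read counts per gene, deposited by the authors with mm10 coordinates per the file headers. The submitters' processing notes name edgeR 3.8.5 under R 3.1.0, SAMtools 0.1.19, Bowtie2 2.2.1 and bcl2fastq 2.17.1.14, while counting program, annotation release and strand setting are not given in sources used here. Samples were grouped by line and agent from their labels.

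Counts were fitted in R 4.3.3 with edgeR 4.0.16 (filterByExpr, TMM, robust quasi-likelihood, 1 mean per group, all 8 libraries). The Hdac2 line was compared with the Hdac1 line after 4OHT, with EtOH, and for the change between the 2 differences. Adjusted p-values are Benjamini-Hochberg over 14179 genes (99.9% of counts) with a threshold of 0.05, and autosomal genes are reported. Standard errors come from the log2 difference and its F statistic. The 4 libraries held 12164178 to 16730333 counts, so 3 counts correspond to 0.171 to 0.267 CPM. The fit was tested on simulated data. Alternatives were 3 other scalings, 2 other filters, DESeq2 1.42.0, limma-voom 3.58.1, the likelihood ratio test, a non-robust fit, the 4 libraries alone, a replicate block, each library left out, and, chosen after seeing the data, the genes outside chromosomes 8, 11, 14 and 16 and a test against each chromosome's median.

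The 43 gene lists and the comparison were chosen with earlier results of these data known. Genes are named by a rule: Hdac1 and Hdac2; the 12 highest and 12 lowest called differences at a mean of at least 5 CPM; up to 4 called members per list by adjusted p; the most different genes with the same, the opposite or a changed difference with EtOH; and the called genes with the highest levels. Members that were not called are given with values only, and further called members were named after their values were seen. Promoter sequences are those of RefSeq on GRCm38.p6.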

Additional observations from a re-analysis of the deposited data

Results flagged for a closer look

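For 4 autosomal genes the difference between the lines itself differed between 4OHT and EtOH, by the test of that change in edgeR's quasi-likelihood fit. Sprr2b had the highest, 6.82 on the log2 scale (adjusted p = 0.0192). It stood at 4.08 and 6.21 CPM in the Hdac1 line and 11.6 and 10.3 CPM in the Hdac2 line after 4OHT (adjusted p = 0.0525), and at 4.58 and 4.55 against 0.0648 and 0.0955 CPM with EtOH. The last 2 values lie under the floor of 3 counts, so the size of the change depends on the prior count and is no bound. The change of Hand2 was 4.63 (adjusted p = 0.0192), with the Hdac2 line above the Hdac1 line after 4OHT and below it with EtOH. That of Slc6a9 was -2.996 (adjusted p = 0.0335), with the Hdac2 line below after 4OHT and above with EtOH. Slc6a9 overlaps B4galt2 on the opposite strand. The change of Car4 was -2.82 (adjusted p = 0.0335), and with EtOH its levels of 39.7 and 37 and 32.7 and 32.5 CPM lay close together.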

How the results depend on the processing

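Without each library in turn, calls ran from 0 to 2190 after 4OHT, from 1 to 3706 with EtOH and from 0 to 3598 for the change of the line difference. With no filter on low counts they were 1738, 1976 and 1150, in DESeq2 1948, 2680 and 1715, and in the likelihood ratio test 2164, 2803 and 1851, in the same order. The change gave 11 calls with no scaling and 1 in limma-voom, and the EtOH difference 134 from its own libraries alone. Chosen after seeing the data, genes outside chromosomes 8, 11, 14 and 16 gave 654, 812 and 2 calls, and the test against the chromosome median gave 528 after 4OHT. The replicate block gave 209, 177 and 0 calls. The replicate numbers pair no samples by their labels, and the replicate differences of the Hdac1 and Hdac2 4OHT groups correlated at -0.21 across 10404 genes, so a call lost under the block is no sign of a weaker effect. The difference of Hdac2, 0.03 on the log2 scale, was -0.00681 with upper quartile scaling, -0.082 with no scaling and -0.052 against the chromosome median, and ran from -0.025 without Hdac1 4OHT replicate 2 to 0.087 without replicate 1. Of 4859 values computed over all settings, 804 lost their call in the same direction, 688 counts of calls moved by over 1.5 times, and 4 turned. With 2 libraries a group and levels under 0.267 CPM not resolved, the cause of these shifts was not tested, and genes that miss the threshold are not shown to be alike.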

Other observations

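Among gene lists not described above, glycolysis and hypoxia genes held 3 higher and 1 lower of 32 tested (12.5% called against 8.01% of all genes). Their median was 0.11, and -0.01 with no scaling beyond library size. Hk1, the hexokinase that starts glycolysis, stood at 128 and 116 CPM in the Hdac1 line and 275 and 284 CPM in the Hdac2 line after 4OHT (1.20 ± 0.15, adjusted p = 0.0152). Adm, a vessel-active peptide gene, and Ndrg1 were the other higher members, and Pfkm the lower one. Of 14 pluripotency genes 2 were lower (14.3% called). Dppa4, on chromosome 16, stood at 10.3 and 15.8 against 1.4 and 1.51 CPM (-3.17 ± 0.49, adjusted p = 0.0216) and Lin28a at 355 and 266 against 147 and 116 CPM (-1.24 ± 0.24, adjusted p = 0.0276). Trp53, on chromosome 11, was the only p53 list member of 22 to pass (4.55% called), at 278 and 289 against 175 and 161 CPM (-0.76 ± 0.16, adjusted p = 0.0327). Scube2, a secreted protein gene, stood at 42.5 and 13.3 against 1.16 and 1.33 CPM (-4.47 ± 0.94, adjusted p = 0.0344), and Esm1, an endothelial proteoglycan gene, at 1.10 and 0.513 against 3.49 and 15.5 CPM (3.58 ± 0.82, adjusted p = 0.0403).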
